A study of Dirofilaria immitis with 5 samples.

Results

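The small RNAs described here are those found in the culture medium of third-stage larvae of Dirofilaria immitis, the nematode that causes heartworm disease in dogs. They are the 37 rows of the deposited table, of 1228 rows in all, that had 10 or more raw reads in the third-stage library. Among the 37 were 26 that carry the name of a known nematode miRNA and 11 predicted candidates, whose names start with PC. The 37 rows held 34201 of the 34448 third-stage reads in the table (99.3%). A further 95 rows had 1 to 9 third-stage reads and 1096 rows had 0. The library was set against 4 others made in the same way from the medium of adult males, adult females, microfilariae and fourth-stage larvae. In every group live whole worms were kept in culture, the medium was concentrated, RNA was extracted with a Norgen Biotek kit and TruSeq small RNA libraries were made. The sources used here give no strain, worm number, worm age or culture time, and no agent or genetic change for any group. With a single library for each stage or sex (1 per group) no spread between replicates can be given. No p-value is therefore printed, and every comparison is between libraries.

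miRNAs are short RNAs that bind messenger RNAs mainly through their seed, the bases near their 5′ end, and lower the output of those messages. In nematodes they were first studied as timers of larval development, lin-4 in early larval stages and let-7 at the passage to the adult in Caenorhabditis elegans. The third-stage larva of a filarial worm is the infective form that a mosquito passes to the host, where it molts to the fourth stage. Worms also release small RNAs, which is what culture medium samples.

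The sequences of the 10 most abundant rows are shown first, followed by those of the 4 further rows that had 50 or more third-stage reads and a higher share than in any other library. They are given 5′ to 3′ as the table writes them, with T for U and with the seed, bases 2 to 8, in capitals.
bma-lin-4: tCCCTGAGacctctgctgcga
PC-3p-389_2939: aAGCATTTggatgagttg
asu-let-7-5p: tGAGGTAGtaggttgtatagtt
bma-miR-100b_R+1: aACCCGTAgatccgaacttgtgt
bma-miR-100a_R+1: aACCCGTAgtttcgaacatgtgt
bma-miR-92_R+2: tATTGCACtcgtcccggcctga
bma-miR-100d_R+1: tACCCGTAgctccgaatatgtgt
bma-miR-5364: cGAGGTATtgtttattggctga
bma-miR-228: aATGGCACtagatgaattcacgg
hco-miR-9: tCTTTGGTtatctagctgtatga
cel-let-7-5p_R+1: tGAGGTAGtaggttgtatagttt
bma-miR-7_R+1: tGGAAGACttgtgattttgttgtt
bma-miR-124_R-2: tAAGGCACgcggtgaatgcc
prd-let-7-5p_1ss12GA: tGAGGTAGtagattgtatagttt

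The table held few of the reads of the third-stage library. Of its 3961584 mappable reads, 34448 (0.870%) fell in the table, against 1.0% in adult males, 5.08% in fourth-stage larvae, 12.2% in adult females and 20.2% in microfilariae. The third-stage percentage was the lowest of the 5. The table reads of the other libraries ran from 32983 in adult males to 727018 in microfilariae. Below, a share is a percentage of the sum of a library's column in the table, and a fold is a ratio of 2 shares. Values in parentheses are exact 95% intervals, and cover the error of counting alone, since the reads carried no molecular identifiers and copies made by PCR are not independent. A row with 0 reads was given a limit of 3 counts, or 0.00871% of the third-stage reads. Because bma-lin-4 filled most of both larval libraries and almost none of the female and microfilarial ones, shares were also taken with bma-lin-4 left out of every column, which leaves 10128 third-stage reads.

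Of the 37 rows, 11 had a share above that in all 4 other libraries, 4 had a share below all of them and 22 lay between. The rows above held 16.5% of the third-stage reads, those below held 0.395% and those between, bma-lin-4 among them, held 82.4%. Over the 190 rows with 10 or more reads in any library, the third-stage share was the highest in 10% and the lowest in 13.7%. A row had to be well represented in the third-stage library to be among the 37, so more rows above and fewer below are built into the choice, and nothing is read from the difference. Of the rows with 10 or more reads in each other library, 50% in adult females (68 rows), 42.4% in microfilariae (61), 41.5% in adult males (22) and 7.94% in fourth-stage larvae (5) had their highest share there. With bma-lin-4 left out, 10 of 36 rows were above all others and 8 below, beside 10.1% and 16.9% of 189 rows. Of the 11 rows first above, 8 stayed above and 3 moved between, and 2 further rows joined them. Of the 4 first below, only PC-3p-183_5819 stayed below. Per mappable read 2 of the 11 stayed above all other libraries, both of them candidates, and 18 of the 37 were below all others.

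**Figure D1:**
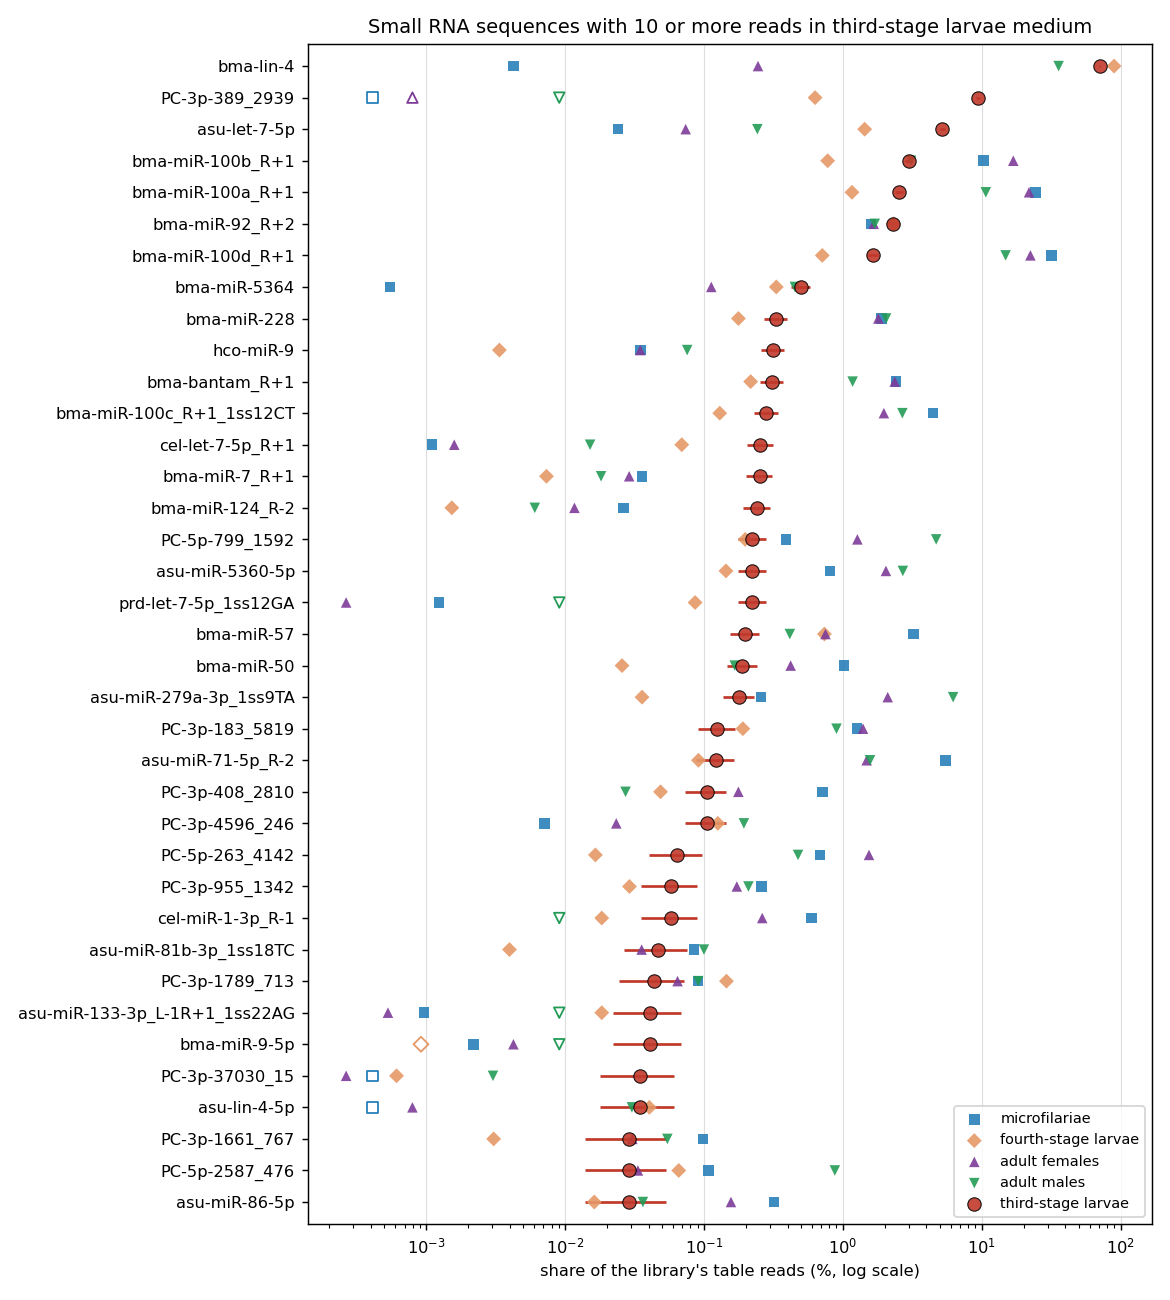
Share of each library's table reads (%, log scale) for the 37 rows with 10 or more third-stage reads, ordered by third-stage reads. Filled symbols are measured shares, open symbols mark 0 reads and stand at the limit of 3 counts, and the lines on the third-stage points are exact 95% intervals. The third-stage points lie right of all others in 11 rows, among them asu-let-7-5p, hco-miR-9, bma-miR-7_R+1 and bma-miR-124_R-2.

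**Figure D2:**
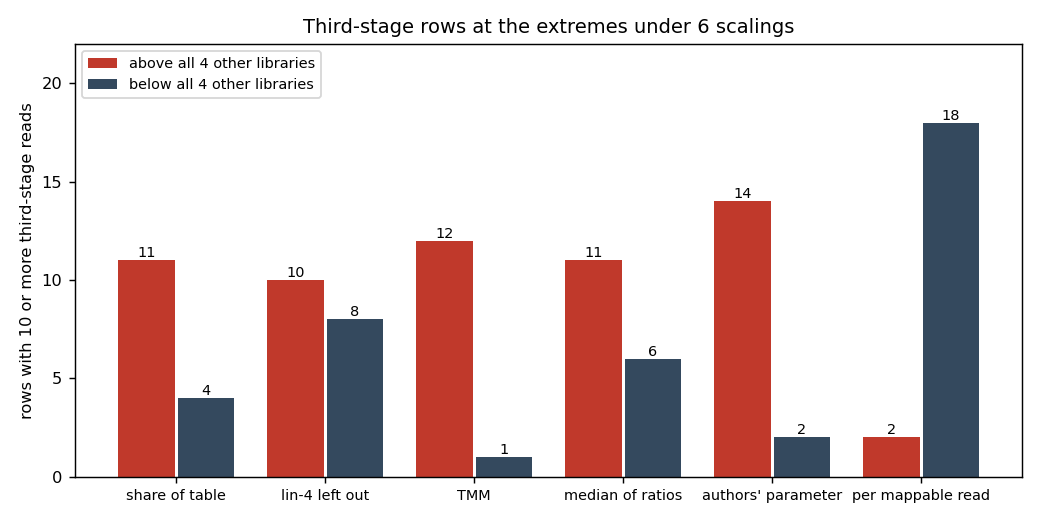
Number of the rows with 10 or more third-stage reads that lie above, or below, all 4 other libraries under each scaling (36 rows with bma-lin-4 left out, 37 otherwise). By share 11 lie above and 4 below; per mappable read 2 lie above and 18 below.

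The timing miRNA lin-4 made up most of the third-stage reads. bma-lin-4 had 24320 of them, a share of 70.6% (70.1 to 71.1), beside 89.6% in fourth-stage larvae, 35.8% in adult males, 0.245% in adult females and 0.00426% in microfilariae. It was the most abundant row in both larval libraries and in males, and stood 27th in females and 86th in microfilariae by reads. The third-stage share was 1.97-fold (1.93 to 2.02) above that of males and 288-fold (270 to 308) above that of females. It was lower than in fourth-stage larvae, 0.788 of that share (0.777 to 0.798), and per mappable read the gap was wider, at 6139 against 45507 RPM, the usual scaling of reads, here to the mappable reads of each library. A second lin-4 row, asu-lin-4-5p, differs from bma-lin-4 by the substitution C19T, counted from 1 at the 5′ end. It had 12 third-stage reads, 132 in fourth-stage larvae, 10 in males, 3 in females and 0 in microfilariae. Its part of the lin-4 reads was 0.0493% (0.0255 to 0.0861) in the third-stage and 0.0451% (0.0378 to 0.0535) in the fourth-stage library, so the intervals of the larval libraries overlap.

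The second most abundant row was a candidate read in the larval libraries and in none of the other 3. PC-3p-389_2939, of 18 nt, had 3219 third-stage reads (9.34%, 9.04 to 9.66) and 2060 fourth-stage reads (0.632%), and 0 reads in microfilariae, females and males. The third-stage share was 14.8-fold (14 to 15.6) above the fourth-stage share. With 3 counts in place of 0, it was 22645-fold above microfilariae, 11714-fold above females and 1027-fold above males. The lower ends of the exact 95% intervals were 18406-fold, 9521-fold and 835-fold. Leaving bma-lin-4 out, PC-3p-389_2939 was 31.8% of the third-stage and 6.09% of the fourth-stage reads, a 5.22-fold (4.94 to 5.52) difference. Per mappable read it remained higher, at 813 against 321 RPM. Its listed match in the dog genome is inexact, and what kind of RNA it comes from was not tested. A second 18 nt candidate, PC-3p-37030_15, had 12 third-stage reads, 2 in fourth-stage larvae, 1 in females, 1 in males and 0 in microfilariae. Its third-stage share of 0.0348% (0.018 to 0.0608) was 11.5-fold (1.70 to 491) above the male share, the next highest, an interval wide for want of reads. These candidates were the pair of rows that stayed above all other libraries under each of the 5 further scalings tried.

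The let-7 rows had their highest shares in third-stage larvae. asu-let-7-5p had 1795 reads there (5.21%, 4.98 to 5.45), 4684 in fourth-stage larvae (1.44%), 80 in males (0.243%), 278 in females (0.0739%) and 175 in microfilariae (0.0241%). It was the third most abundant row of both larval libraries and stood between 29th and 53rd elsewhere. The third-stage share was 3.63-fold (3.43 to 3.83) above the fourth-stage share and 21.5-fold (17.2 to 27.2) above the male share. The larval libraries came close when bma-lin-4 was left out, at 17.7% and 13.8%, a ratio of 1.28 (1.21 to 1.35), and per mappable read the third-stage value was lower, at 453 against 729 RPM. cel-let-7-5p_R+1 is the same sequence with 1 further base at its 3′ end and had 88 reads (0.255%, 0.205 to 0.315). It was 3.69-fold (2.85 to 4.74) above the fourth-stage share of 0.0693%, and its shares in males, females and microfilariae were 0.0152%, 0.0016% and 0.0011%. The third form, prd-let-7-5p_1ss12GA, has 1 more base than asu-let-7-5p at the 3′ end and the substitution G12A, counted from the 5′ end. It had 77 third-stage reads, 282 in fourth-stage larvae, 9 in microfilariae, 1 in females and 0 in males, and was 2.59-fold (1.98 to 3.34) above the fourth-stage share. Left without bma-lin-4 it was level with fourth-stage larvae at 0.913 (0.70 to 1.18) of that share.

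The mix of let-7 rows was alike in the third-stage, fourth-stage and microfilarial libraries. Of the reads in these 3 rows, asu-let-7-5p took 91.6% (90.3 to 92.8) in the third-stage and 90.2% (89.4 to 91.0) in the fourth-stage library. cel-let-7-5p_R+1 took 4.49% (3.62 to 5.50) and 4.35% (3.81 to 4.94). prd-let-7-5p_1ss12GA took 3.93% (3.11 to 4.89) and 5.43% (4.83 to 6.08), with intervals that barely touch. In microfilariae the 3 rows took 91.1% (86.2 to 94.8), 4.17% (1.82 to 8.04) and 4.69% (2.17 to 8.71), in the same order. In adult females prd-let-7-5p_1ss12GA took 0.351% (0.00888 to 1.94), below the intervals of the third-stage and fourth-stage libraries. In males it had 0 of 85 reads (0% to 4.25%). These proportions do not depend on how libraries are scaled. The table lists all 3 rows as exact matches to dog sequence, and dog let-7 is highly conserved with that of worms.

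Rows named after the neural miRNAs miR-9, miR-7 and miR-124 formed the next group, while a further neural miRNA, miR-87, was scarce in third-stage larvae. miR-124 is found in sensory neurons in C. elegans and throughout the nervous system in vertebrates, and in vertebrates miR-7 in neuroendocrine cells and miR-9 in developing neural tissue. hco-miR-9 had 108 third-stage reads (0.314%, 0.257 to 0.378), 25 in males (0.0758%), 255 in microfilariae (0.0351%), 131 in females (0.0348%) and 11 in fourth-stage larvae (0.00337%). bma-miR-7_R+1 had 87 third-stage reads (0.253%, 0.202 to 0.311), 260 in microfilariae (0.0358%), 109 in females (0.029%), 6 in males (0.0182%) and 24 in fourth-stage larvae (0.00736%). bma-miR-124_R-2 had 83 third-stage reads (0.241%, 0.192 to 0.299), 192 in microfilariae (0.0264%), 44 in females (0.0117%), 2 in males (0.00606%) and 5 in fourth-stage larvae (0.00153%). By share the third-stage library was the highest for each of these 3 rows and fourth-stage larvae the lowest. With bma-lin-4 left out, fourth-stage larvae stayed lowest for hco-miR-9 alone. They were then second highest for bma-miR-7_R+1 (0.0709%) and above females and males for bma-miR-124_R-2 (0.0148%). The 6 rows named after miR-87, none of them among the 37, had 4 third-stage reads in sum (0.0116%), against 2098 in microfilariae (0.289%), 56 in males (0.170%), 395 in females (0.105%) and 5 in fourth-stage larvae (0.00153%). Their summed share was 24.9-fold (9.69 to 91.3) higher in microfilariae than in third-stage larvae.

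The ratios to the next highest library were 4.14-fold (2.66 to 6.67, against males) for hco-miR-9, 7.06-fold (5.47 to 9.04, against microfilariae) for bma-miR-7_R+1 and 9.12-fold (6.97 to 11.9, against microfilariae) for bma-miR-124_R-2. Against fourth-stage larvae they were 93.0-fold (49.9 to 192), 34.3-fold (21.6 to 56.4) and 157-fold (64.7 to 497). With bma-lin-4 left out, the ratios to fourth-stage larvae fell to 32.8-fold, 12.1-fold and 55.5-fold. By rank these rows stood 10th, 14th and 15th in third-stage larvae, 58th, 44th and 73rd in fourth-stage larvae and 47th, 46th and 52nd in microfilariae. Each stayed above all other libraries with bma-lin-4 left out. The ratios to the next highest were then 9.04-fold (5.81 to 14.6, against males), 12.1-fold (7.64 to 19.9, against fourth-stage larvae) and 31-fold (23.7 to 40.3, against microfilariae). Per mappable read, though, microfilariae and females were above third-stage larvae for hco-miR-9 and bma-miR-7_R+1, and microfilariae for bma-miR-124_R-2. The microfilarial values were 70.9 against 27.3 third-stage RPM for hco-miR-9, 72.3 against 22 for bma-miR-7_R+1 and 53.4 against 21 for bma-miR-124_R-2. Third-stage larvae remained above fourth-stage larvae on that scale, where the fourth-stage values were 1.71, 3.74 and 0.778. A shorter form, bma-miR-9-5p, is hco-miR-9 without its first base and had 14 third-stage reads, 16 in microfilariae, 16 in females and 0 in males and fourth-stage larvae. Its part of the reads of both miR-9 rows was 11.5% (6.42 to 18.5) in third-stage larvae, 10.9% (6.35 to 17.1) in females and 5.90% (3.41 to 9.41) in microfilariae.

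**Figure D3:**
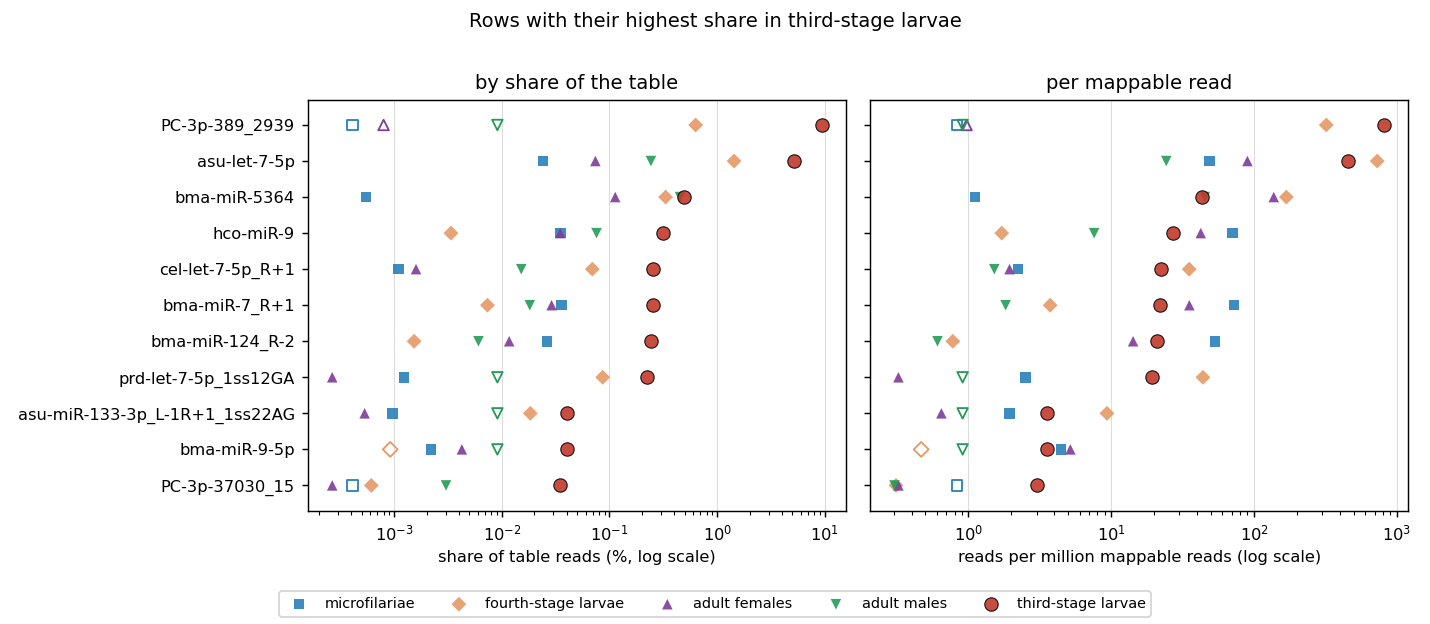
The 11 rows with their highest share in third-stage larvae, as share of table reads (%, left) and as RPM, reads scaled to mappable reads (right), both on log axes. Open symbols mark 0 reads and stand at 3 counts. On the right only PC-3p-389_2939 and PC-3p-37030_15 keep the third-stage point right of all others.

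The remaining rows above all others were bma-miR-5364 and a muscle miRNA. bma-miR-5364 had 171 third-stage reads (0.496%, 0.425 to 0.576), 149 in males (0.452%), 1083 in fourth-stage larvae (0.332%), 4 in microfilariae (0.00055%) and 425 in females (0.113%). The third-stage and male shares could not be told apart at this depth, with a ratio of 1.10 (0.877 to 1.38). The ratio was 902 (346 to 3349) against microfilariae, and with bma-lin-4 left out fourth-stage larvae were higher, at 3.20% against 1.69%. The row asu-miR-133-3p_L-1R+1_1ss22AG, named after a miRNA that acts in muscle in vertebrates, had 14 third-stage reads, 60 in fourth-stage larvae, 7 in microfilariae, 2 in females and 0 in males. It was 2.21-fold (1.14 to 4.0) above the fourth-stage share, and below it at 0.780 (0.402 to 1.41) with bma-lin-4 left out. The other muscle row, cel-miR-1-3p_R-1, was placed differently, with 20 third-stage reads (0.0581%, 0.0355 to 0.0897) against 4330 in microfilariae (0.596%), 989 in females (0.263%), 60 in fourth-stage larvae (0.0184%) and 0 in males. Its third-stage share was below those of microfilariae and females and above that of fourth-stage larvae.

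The miR-100 family, whose nematode members include miR-51 and are needed in C. elegans embryos, was lower in third-stage larvae than in all but fourth-stage larvae. bma-miR-100b_R+1 had 1027 third-stage reads (2.98%, 2.80 to 3.17), against 16.9% in females, 10.3% in microfilariae, 3.10% in males and 0.778% in fourth-stage larvae. bma-miR-100a_R+1 had 874 (2.54%, 2.37 to 2.71), against 24.3% in microfilariae, 21.9% in females, 10.7% in males and 1.16% in fourth-stage larvae. bma-miR-100d_R+1 had 566 (1.64%, 1.51 to 1.78), against 31.8%, 22.4%, 14.9% and 0.711% in the same order. The share of bma-miR-100b_R+1 was 0.962 (0.881 to 1.05) of that in males, an interval that includes equal shares, while that of bma-miR-100d_R+1 was 9.04-fold (8.28 to 9.88) lower than in males. bma-miR-100c_R+1_1ss12CT, with 97 reads (0.282%), followed bma-miR-100d_R+1, being above fourth-stage larvae alone. With bma-lin-4 left out, rows a, c and d were below all 4 other libraries and row b lay between.

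The make-up of the miR-100 reads set the third-stage library apart without any scaling between libraries. The letters a to d share the seed ACCCGTA and differ beyond it. bma-miR-100b_R+1 was the most abundant of them in third-stage larvae alone, at 40.1% (38.2 to 42) of their 2564 reads. Its part was 28.0% (27.0 to 28.9) in fourth-stage larvae, 26.7% (26.5 to 26.9) in females, 14.6% (14.5 to 14.7) in microfilariae and 9.89% (9.32 to 10.5) in males. bma-miR-100d_R+1 was the converse, with 22.1% (20.5 to 23.7) in third-stage larvae and between 25.6% and 47.4% elsewhere. bma-miR-100a_R+1 took 34.1% (32.3 to 36), and its interval held the values of microfilariae, females and males but not the 41.8% of fourth-stage larvae. These intervals cover counting error within 1 library each and say nothing of how another third-stage culture would vary.

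**Figure D4:**
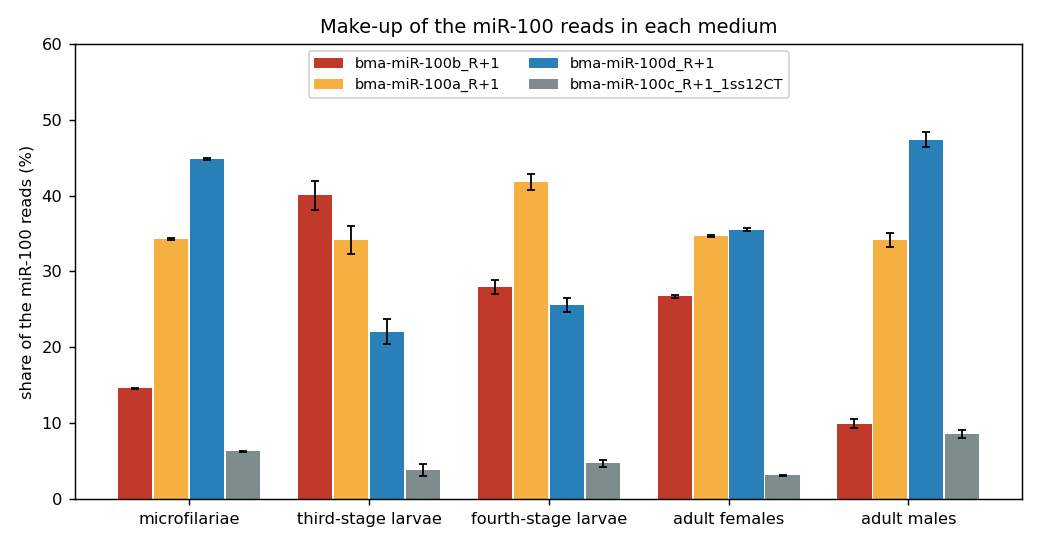
Percentage of the reads of the 4 miR-100 rows taken by each row, by library; bars start at 0 and lines are exact 95% intervals. Row b leads in third-stage larvae at 40.1%, row a in fourth-stage larvae at 41.8%, and row d in the other libraries.

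bma-miR-92_R+2, of the family that includes the vertebrate miR-25 and miR-92, had shares that lay close together, from 1.60% to 2.32%. It had 789 third-stage reads (2.29%, 2.14 to 2.45), beside 2.32% in fourth-stage larvae, 1.70% in males, 1.67% in females and 1.60% in microfilariae. The larval shares were level at a ratio of 0.989 (0.918 to 1.06), and the third-stage share was 1.35-fold (1.21 to 1.51) above that of males. Once bma-lin-4 was left out the larval libraries parted, at 7.79% in the third-stage library against 22.3% in the fourth-stage one. bma-miR-228, whose gene is active in glia of C. elegans, had 113 third-stage reads (0.328%, 0.27 to 0.394), against 2.05% in males, 1.89% in microfilariae, 1.8% in females and 0.177% in fourth-stage larvae. Its share was thus between 5.49-fold and 6.25-fold below those of females, microfilariae and males, which lay close together.

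Among the rows below all 4 others, bma-miR-57, a miRNA that acts in patterning of the tail end in C. elegans, was the most abundant. It had 68 third-stage reads (0.197%, 0.153 to 0.25), against 137 in males (0.415%), 2403 in fourth-stage larvae (0.737%), 23516 in microfilariae (3.23%) and 2821 in females (0.750%). Its share was 2.10-fold (1.56 to 2.86) below the next lowest library, males, and 16.4-fold (12.9 to 21.1) below microfilariae. Leaving bma-lin-4 out, it was level with males at 1.04 (0.765 to 1.4) and lay between. PC-3p-183_5819 had 43 third-stage reads (0.125%, 0.0904 to 0.168), against 622 in fourth-stage larvae (0.191%), 297 in males (0.900%), 9192 in microfilariae (1.26%) and 5256 in females (1.4%). It was 1.53-fold (1.12 to 2.13) below fourth-stage larvae, and 4.33-fold below them with bma-lin-4 left out. PC-5p-2587_476 had 10 third-stage reads (0.029%, 0.0139 to 0.0534), against 0.0335% in females, 0.0659% in fourth-stage larvae, 0.108% in microfilariae and 0.876% in males. Its interval included the female share, as did that of PC-3p-1789_713, which had 15 third-stage reads (0.0435%) beside 0.0646% in females. For this pair of candidates the place below all others was not settled at this depth.

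By share, most of the rows between lay above fourth-stage larvae and below the other libraries. Of the 22 rows, 14 exceeded 1 library, which was fourth-stage larvae in all 14, 5 exceeded 2 libraries and 3 exceeded 3. In all, 18 of the 22 exceeded fourth-stage larvae, 6 males, 5 females and 4 microfilariae. With bma-lin-4 left out, 7 of these rows fell below all 4 other libraries, 2 rose above them and 12 stayed between. asu-miR-71-5p_R-2, of a family that promotes long life and stress resistance in C. elegans, had 42 third-stage reads (0.122%, 0.0879 to 0.165), against 5.47% in microfilariae, 1.57% in males, 1.49% in females and 0.0914% in fourth-stage larvae. It was 44.9-fold (33.2 to 62.3) below microfilariae, while its ratio of 1.33 (0.942 to 1.85) to fourth-stage larvae included equal shares. Without bma-lin-4 it was below fourth-stage larvae, at 0.415% against 0.880%. asu-miR-279a-3p_1ss9TA had 62 third-stage reads (0.180%), against 6.22% in males, 2.10% in females, 0.257% in microfilariae and 0.0359% in fourth-stage larvae. Its share was 34.6-fold (26.9 to 45.3) below males and 5.02-fold (3.63 to 6.88) above fourth-stage larvae. Without bma-lin-4 it was 2.38-fold (1.82 to 3.07) above microfilariae. bma-miR-50 had 65 third-stage reads (0.189%) and was 7.33-fold (5.22 to 10.3) above fourth-stage larvae. It was level with males at 1.13 (0.778 to 1.65) and below females (0.421%) and microfilariae (1.02%). Without bma-lin-4 it was above both adult libraries, 1.52-fold (1.17 to 1.95) above females and 2.47-fold (1.70 to 3.61) above males, and still below microfilariae. PC-3p-4596_246 was placed the other way round, with 36 third-stage reads (0.105%), above females (0.0234%) and microfilariae (0.00715%) and below fourth-stage larvae (0.126%) and males (0.194%). PC-5p-799_1592, which has the seed ACCCTGT of bma-miR-57, had 77 third-stage reads (0.224%), against 4.70% in males, 1.27% in females, 0.391% in microfilariae and 0.198% in fourth-stage larvae. Without bma-lin-4 its third-stage share of 0.760% was below fourth-stage larvae (1.91%) but above microfilariae (0.391%), so it still lay between. A further 5 rows, asu-miR-5360-5p, PC-3p-408_2810, PC-5p-263_4142, PC-3p-955_1342 and asu-miR-86-5p, had 10 to 77 third-stage reads and shares of 0.029% to 0.224%, each above fourth-stage larvae and below microfilariae and females. Without bma-lin-4, all of these but PC-5p-263_4142 were below fourth-stage larvae. PC-3p-408_2810 was then above females, at 0.355% against 0.178%. PC-3p-955_1342 was level with females at a ratio of 1.14 (0.693 to 1.78).

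The 3 rows that share the seed GAGATCA differed in make-up between libraries. They are bma-bantam_R+1, of a family that promotes growth in Drosophila, asu-miR-81b-3p_1ss18TC and the candidate PC-3p-1661_767. bma-bantam_R+1 had 106 third-stage reads (0.308%), against 2.41% in microfilariae, 2.36% in females, 1.18% in males and 0.217% in fourth-stage larvae. It took 80.3% (72.5 to 86.7) of the 132 third-stage reads with this seed, 88.4% (85.0 to 91.2) in males, 92.9% in microfilariae, 96.9% in fourth-stage larvae and 97.3% in females. asu-miR-81b-3p_1ss18TC took 12.1% (7.09 to 18.9) in third-stage larvae and 7.52% (5.23 to 10.4) in males, with overlapping intervals, and 1.47% to 3.28% in the other 3 libraries. For bma-bantam_R+1 the third-stage and male intervals also overlapped, though each value lay outside the interval of the other.

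Summed by family, 4 of 16 lists with third-stage reads had their highest share there, 2 their lowest and 10 lay between. The let-7 list summed to 5.69% of third-stage reads, 3.57-fold (3.39 to 3.77) above fourth-stage larvae. The miR-9/miR-79 list summed to 0.354%, 4.67-fold above males, 5.26-fold (4.21 to 6.56) above females and 68.0-fold (40.7 to 120) above fourth-stage larvae. The neuronal list of miR-124, miR-7 and miR-87 summed to 0.511%, against 0.352% in microfilariae, 0.194% in males, 0.146% in females and 0.0113% in fourth-stage larvae. It was 1.45-fold (1.24 to 1.69) above microfilariae, a sum of rows that ran opposite ways, since its miR-87 rows were higher in microfilariae. Per mappable read the list was below the highest other library, with a log2 ratio of -4.00. The list of miR-86, miR-50, miR-57, miR-228 and miR-236, set up as intestinal or epidermal, was the lowest. It was at 0.749% (0.661 to 0.846) against 0.956% in fourth-stage larvae and 2.79% to 6.48% in the others. That place was lost under 3 of the 5 other scalings, where its log2 ratio to the lowest other library was 0.87 (TMM), 0.12 (median of ratios) and 0.46 (the authors' library size parameter). Of its 258 third-stage reads, 113 were in bma-miR-228 and 68 in bma-miR-57, so no tissue is read from the sum. The miR-2/miR-43 list was also lowest, with 3 third-stage reads, but its ratio of 0.430 (0.0866 to 1.31) to fourth-stage larvae included equal shares. The embryonic miR-35/miR-36 list, whose C. elegans members act in embryos, had 9 third-stage reads (0.0261%), against 5.15% in females, 0.561% in males, 0.00123% in fourth-stage larvae and 0.000138% in microfilariae. Of the 9 reads, 7 were in cel-miR-39-3p, which had 0 reads in the other 4 libraries and was singled out after its values were seen. This C. elegans miRNA is often added to samples as a spike-in, and the sources used here do not say whether one was added, so whether these reads come from the worm was not tested. With bma-lin-4 left out, 3 lists were highest in third-stage larvae, 5 lowest and 8 between.

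Set against each other library in turn by share, 13 of the 37 rows were within 2-fold of fourth-stage larvae, 9 of males, 6 of females and 4 of microfilariae. No trait of the 37 rows is read from these counts. The shares over all rows compared follow for rows past 2-fold only, and counts past 2-fold move with the scaling. Against microfilariae, 14 rows were higher by 2-fold or more and 19 lower by as much, beside 43% higher and 31.8% lower of 151 rows with 10 or more reads in either library. Against fourth-stage larvae 21 were higher and 3 lower, beside 50% and 6.06% of 66 rows. Against females 14 were higher and 17 lower, beside 20.4% and 50% of the rows compared, and against males 12 were higher and 16 lower, beside 19% and 66.7% of 63 rows. The median log2 ratio of the 37 rows was -1.05 against microfilariae, 1.12 against fourth-stage larvae, -0.57 against females and -0.33 against males. The medians over all rows compared were 0.53, 1.02, -0.96 and -2.18. Across the 37 rows, which share a library and so are not independent, Spearman's rho of the shares was 0.70 with fourth-stage larvae, 0.45 with males, 0.38 with females and 0.22 with microfilariae. All 4 comparisons use the same third-stage library.

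Some features of the rows were not used in the choice. Of the 37, 22 (59.5%) start with T, against 39.6% of the rows with 10 or more reads in microfilariae, 44.4% in fourth-stage larvae, 38.2% in females, 45.3% in males and 26.3% of all 1228 rows. By reads the order differed. Rows that start with T held 82.7% of third-stage reads, 95.7% in fourth-stage larvae, 66.5% in males, 51.3% in microfilariae and 41.4% in females. The median length of the 37 rows was 22 nt, as in every other library. The 37 rows hold 28 seeds, and 5 of these are shared, by 14 rows. Shared seeds were not counted over other rows, so nothing is read from this count.

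Rows listed by the authors as matching the dog genome were common among those high in third-stage larvae. Of the 37 rows, 14 (37.8%) have such a listing, 9 of them exact, against 33.3% of the rows with 10 or more reads in fourth-stage larvae, 22.6% in males, 16.2% in females, 16% in microfilariae and 4.56% of all rows. They made up 10 of the 11 rows above all other libraries, 4 of the 22 between and 0 of the 4 below. The exception among the 11 was bma-miR-5364. These rows held 16.9% of third-stage reads, 10.1% in females, 9.96% in males, 5.34% in microfilariae and 2.80% in fourth-stage larvae. Without PC-3p-389_2939 the third-stage value was 7.54%, between those of microfilariae and males. Exact matches held 6.71% in third-stage larvae, 6.32% in males, 2.09% in females, 1.88% in fourth-stage larvae and 1.24% in microfilariae. With every such row taken out, 3 rows were above all other libraries, namely bma-miR-5364, bma-miR-92_R+2 and asu-lin-4-5p, and 0 were 2-fold above. A match to the dog sequence does not tell worm from host RNA for conserved miRNAs, and its part in these results was not tested. Of the vertebrate miRNAs of blood, liver and immune cells looked for by name, miR-451, miR-223 and miR-122 among them, 0 rows were found. The named rows among the 37 carry nematode names, so this search could not show whether host RNA was present. Nothing is read from it.

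**Figure D5:**
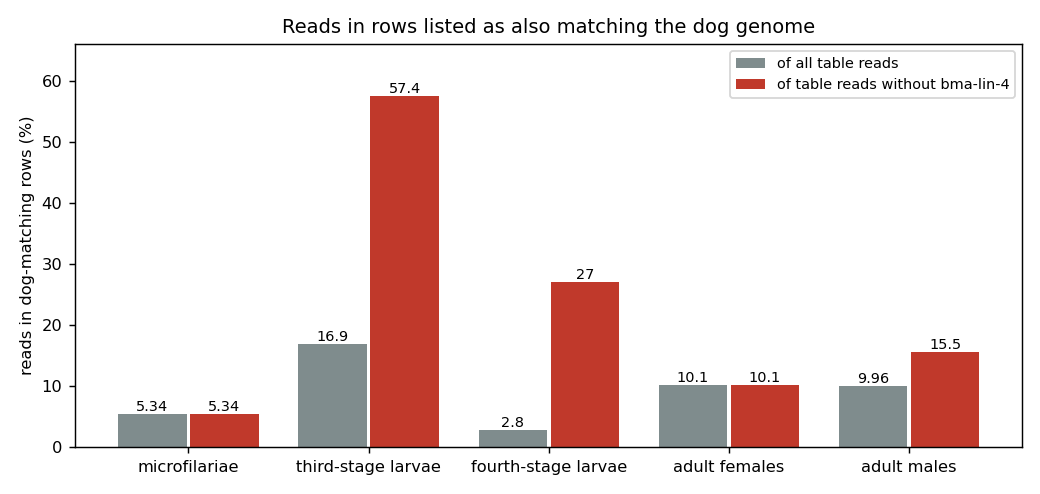
Percentage of reads that fell in rows listed as matching the dog genome, by library, of all table reads (grey) and of table reads without bma-lin-4 (red); bars start at 0 and each is 1 library. The third-stage library had the highest value on both, 16.9% and 57.4%, of which PC-3p-389_2939 alone was 9.34% and 31.8%.

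Some rows that were abundant elsewhere were scarce in third-stage larvae. The 8 with the highest summed share in the other libraries, among rows under 10 third-stage reads, had 1 to 9 reads. bma-miR-36a_R+1_1ss19GA had 2 third-stage reads against 19034 in females (5.06%), 183 in males, 4 in fourth-stage larvae and 1 in microfilariae. Its female share was 872-fold (241 to 7199) above the third-stage share. The third-stage share of 0.00581%, which rests on 2 reads, was not below those of fourth-stage larvae (0.00123%) and microfilariae (0.000138%). cel-miR-34-5p_R+1_1ss1AT, whose family responds to DNA damage in C. elegans, had 9 third-stage reads against 14489 in microfilariae (1.99%), a share 76.3-fold (40.2 to 167) higher. It had 23 reads in fourth-stage larvae, a lower share than in third-stage larvae, at 0.00705% against 0.0261%. bma-miR-2c_1ss20TC had 3 third-stage reads against 305 in males (0.925%), a share 106-fold (36 to 518) higher. PC-3p-521_2331 had 7 third-stage reads against 14143 in females (3.76%) and 12879 in microfilariae (1.77%). Just inside the minimum, at 10 third-stage reads, stood asu-miR-86-5p, PC-5p-2587_476 and PC-3p-1661_767. Just outside it, at 9, stood asu-miR-100a-5p_L+1R-3_1ss17AT, bma-miR-239_R-1 and cel-miR-34-5p_R+1_1ss1AT.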

How the data were processed

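Small RNAs from culture medium of 5 groups were sequenced, 1 library each. Medium in which whole worms had been kept was concentrated before extraction, per the labels' protocols; the submitters' processing notes name Bowtie and bcl2fastq 1.8.4. The deposited raw columns hold read counts that the authors did not always leave whole (7 to 48 fractional values per library), so they were taken for estimated counts and rounded. The deposited normalised signal, the raw value divided by a library size parameter, was used only as an alternative scaling. How multiply mapping reads and near-identical rows were counted is not given in the sources used here, so reads of let-7, miR-100 and miR-9 forms may be split between rows.

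Shares, exact Clopper-Pearson intervals and exact conditional intervals of ratios were computed with Python 3.11.15 and scipy 1.17.1, and TMM factors with edgeR 4.0.16 in R 4.3.3. Pairwise scripts were tested on simulated data. With 1 library per group nothing was tested; a row was counted as higher or lower at 2-fold. Rows with 10 or more third-stage reads could be named. Values in every library are given for the 10 most abundant and for extreme rows with 50 or more reads, others were picked for their role, and the 8 scarce rows were taken by summed share. The rows and family lists were chosen with earlier results of these data known. Suffixes of row names are given as in the table, which does not explain them. Alternatives were other denominators and scalings, read minimums, folds, subsets of rows and leaving out each other library.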

Additional observations from a re-analysis of the deposited data

How the results depend on the processing

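By share 11 of the third-stage rows lay above all 4 other libraries, 4 lay below and 10 were 2-fold above the highest other; the counts of rows at least 2-fold higher and lower were 65 and 48 against microfilariae, 33 and 4 against fourth-stage larvae, 29 and 71 against females, and 12 and 42 against males. Counts that moved by over 1.5 times were 72 and follow here; 78 others did not. Per mappable read 2 rows lay above, 18 below and 2 were 2-fold above, with 8 higher and 139 lower than in microfilariae, 6 and 44 for fourth-stage larvae, and 8 and 130 for females. With bma-lin-4 left out 8 lay below and 6 were 2-fold above, with 26 lower than in microfilariae, 10 higher and 22 lower than in fourth-stage larvae, and 69 higher and 35 lower than in females. With TMM factors 1 lay below, with 9 lower than in fourth-stage larvae, 71 higher and 31 lower than in females, and 25 higher and 16 lower than in males. With median of ratios factors 6 were 2-fold above, with 102 higher and 24 lower than in microfilariae, 12 and 20 for fourth-stage larvae, 74 and 28 for females, and 21 and 24 for males. With the authors' library size parameter 2 lay below, with 107 and 16 for microfilariae, 16 and 13 for fourth-stage larvae, 86 and 24 for females, and 24 and 21 for males. At a minimum of 5 reads 18 lay above, and 109, 89 and 19 rows were higher than in microfilariae, females and males. At 20 reads 2 lay below, and 30 and 10 were higher than in microfilariae and females. At 50 reads 1 lay below, and 11, 17, 10 and 7 were higher than in microfilariae, fourth-stage larvae, females and males. With dog-matching rows taken out 3 lay above and 0 were 2-fold above, with 20 higher and 2 lower than in fourth-stage larvae and 2 higher than in males. Among named rows only 1 lay below, with 24 higher and 25 lower than in microfilariae, 2 lower than in fourth-stage larvae, 15 higher and 34 lower than in females, and 21 lower than in males. At 4-fold 38 were higher than in microfilariae, 12 higher and 0 lower than in fourth-stage larvae, and 14 higher and 46 lower than in females; at 1.5-fold 9 were lower than in fourth-stage larvae. Where the interval had to leave out equal shares, 2 lay below. Without fourth-stage larvae 18 lay below and 14 above; without each other library in turn the counts stayed at 11 and 4.

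Of 21 single ratios (rows or lists above or below all others), 17 changed sign under at least 1 scaling, with 13 changes per mappable read, 7 with bma-lin-4 left out, 7 with median of ratios, 6 with the library size parameter and 4 with TMM. Per mappable read the log2 ratio to the highest other library was -0.69 for asu-let-7-5p, -1.18 for prd-let-7-5p_1ss12GA, -0.66 for cel-let-7-5p_R+1, -1.38 for hco-miR-9, -0.55 for bma-miR-9-5p, -1.72 for bma-miR-7_R+1, -1.35 for bma-miR-124_R-2, -1.40 for asu-miR-133-3p_L-1R+1_1ss22AG, -1.97 for bma-miR-5364 and for its list, -0.71 for the let-7 list, -1.63 for the miR-9/miR-79 list and -4.00 for the neuronal list. With bma-lin-4 left out it was -0.13 for prd-let-7-5p_1ss12GA and -0.36 for asu-miR-133-3p_L-1R+1_1ss22AG, which was -0.068 with median of ratios factors. For bma-miR-57 the log2 ratio to the lowest other library became 1.69 with TMM, 0.95 with median of ratios, 1.29 with the library size parameter and 0.055 with bma-lin-4 left out. In the same order it became 1.73, 1.85, 2.16 and 1.56 for PC-5p-2587_476 and 1.70, 1.49, 1.8 and 1.19 for PC-3p-1789_713. The ratio of bma-miR-5364 to the highest other library was -0.63 with median of ratios, -0.31 with the library size parameter and -0.92 with bma-lin-4 left out, and that of its list came to the same values. Scalings moved all third-stage ratios together, per mappable read by -4.54 on the log2 scale against microfilariae, -2.55 against fourth-stage larvae, -3.81 against females and -0.20 against males; why libraries differed in table reads was not tested. No paired analysis was possible because each group had 1 library and the labels give no replicate numbers. With 34448 table reads, 3 counts in third-stage larvae are 0.00871%, and 11 of the 37 rows rested on 10 to 20 reads.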
